A study of Mus musculus with 11 samples.

Results

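The transcripts described here are those of 9 Polycomb genes in mouse B cell lymphomas. They encode 4 chromobox proteins (Cbx2, Cbx6, Cbx7 and Cbx8), the ring finger proteins Bmi1, Ring1 and Rnf2, and the histone methyltransferase subunits Ezh2 and Suz12. Their probes were found by gene name among the non-control probes of the arrays, which gave 12 probes of 39429: 3 for Cbx6, 2 for Bmi1 and 1 for each other gene. Of the 20193 genes tested in the whole series, all 9 were among those kept by a filter on dim probes. Cbx7 was selected on its signal difference between MCL and BL in these same arrays, so its values are given as a description, without a test, and nothing is supported with them. It passed the filter only through the type in which it is high. The probes of the other 8 genes were well above background on all 11 arrays.

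RNA from 11 lymph node tumours was hybridised to one-colour microarrays. There were 4 tumours of plasma cell lymphoma (PCL), 3 of mantle cell lymphoma (MCL) and 4 of Burkitt lymphoma (BL). The labels give every tumour the genotype c-myc-3'RR/p53+/-, the strain Black 6 and a mature B cell stage, and no ages are given. All 3 types therefore share a c-myc transgene under control of the 3' enhancers of the heavy chain immunoglobulin gene, together with the loss of 1 p53 allele, and there was no sample of normal B cells. Each type was hybridised on a slide of its own, so type and slide cannot be told apart in any comparison below. The labels do not say whether each tumour came from a separate mouse, so a p-value here reflects the spread among these tumours, which may be technical.

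Polycomb proteins keep genes silent through 2 kinds of complex. Polycomb repressive complex 2, with Ezh2 as its catalytic subunit and Suz12 as a core partner, methylates histone H3 at lysine 27. Canonical Polycomb repressive complex 1 reads that mark through a chromobox protein and places ubiquitin on histone H2A through the Ring1 or Rnf2 ligase, with Bmi1 as a cofactor of the ligase. In B cells, Ezh2 and Bmi1 are known for their roles in dividing germinal centre cells and in the silencing of the Cdkn2a locus, and Ezh2 is often mutated in human germinal centre lymphomas.

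The probes themselves differ in base composition, and this bears on Cbx7 and Cbx8. The 30 bases at the 3′ end of 4 of the 60-base probes are shown, read 5′ to 3′ from the deposited scanner files, with G and C in capitals. Cbx7 and Cbx8 are shown because their probes are among the poorest in G and C on the array, Ezh2 because it carries the one called difference, and the leading Cbx6 probe because it varied most within one type (MCL).
Cbx7: aattattaaaaaataCattaaaatGtCttt
Cbx8: atGtaaatatGttatttaaGaGaaaaatat
Ezh2: tGCaataatGCaGtatGGtaCatttttCaa
Cbx6: tGattttatGaCaGGaaaGtGaaaGttaGt
In build mm9, the whole Cbx7 probe lies at chr15:79746240-79746299 on the minus strand, the Cbx8 probe at chr11:118899777-118899836 on the minus strand, the Ezh2 probe at chr6:47480307-47480366 on the minus strand and the Cbx6 probe at chr15:79656576-79656635 on the minus strand. G and C make up 20% of the Cbx7 probe, 18.3% of the Cbx8 probe, 35% of the Ezh2 probe and 30% of this Cbx6 probe, against a median of 41.7% over all probes. Only 0.304% of probes have as little G and C as the Cbx7 probe or less, and 0.170% as little as the Cbx8 probe or less. Where the probes lie within the transcripts was not analysed here.

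Values below are log2 signals relative to the 75th percentile of the same array, so a difference of 1 is a doubling, and levels of different probes are not set against each other. A gene was called at an adjusted p under 0.05 in limma, with Benjamini-Hochberg adjustment over all 20193 genes. The 3 comparisons (PCL minus MCL, PCL minus BL, MCL minus BL) share tumours, so their results are not independent.

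**Figure D1:**
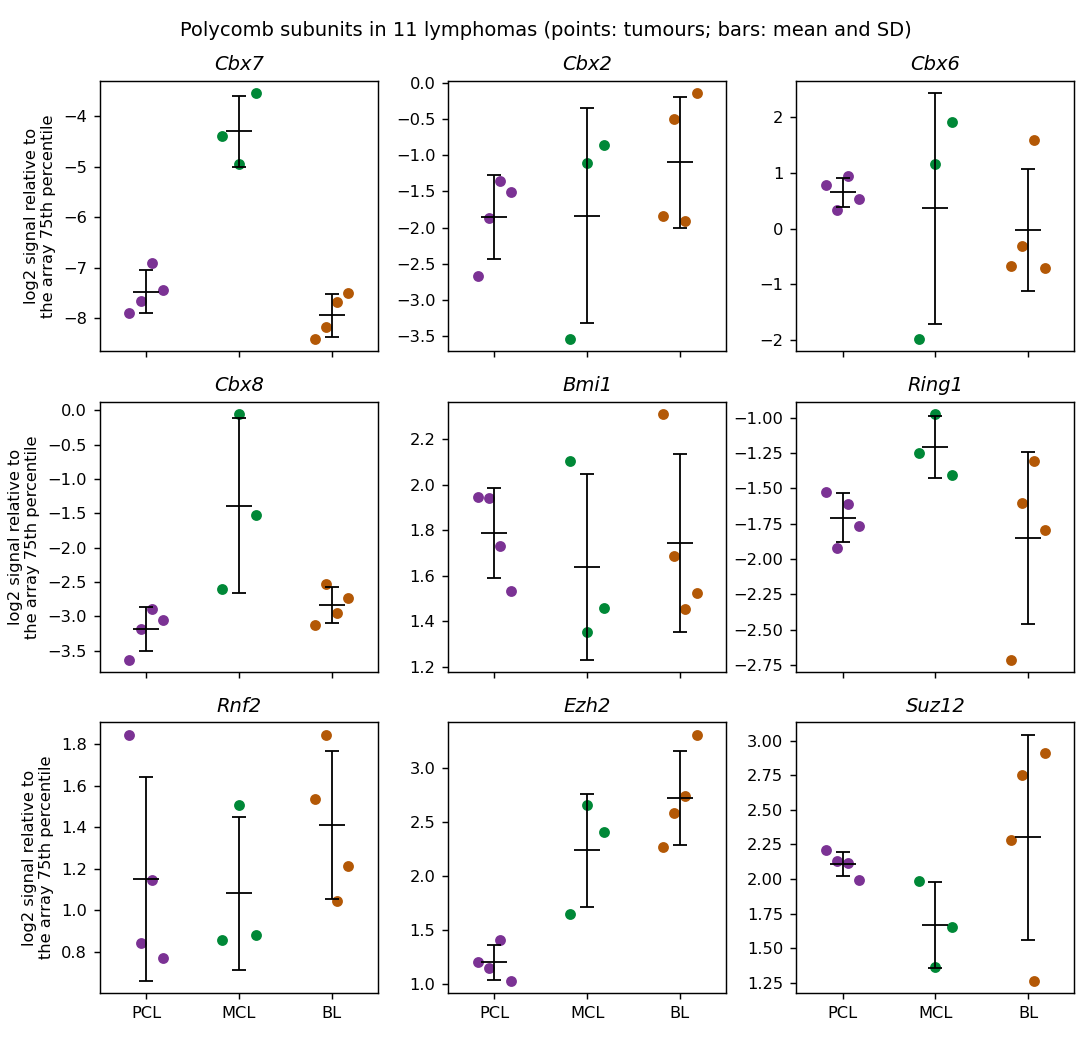
Log2 signal relative to the 75th percentile of the array (vertical axes, which differ between panels) of the leading probe of each of the 9 genes in each tumour, with the types PCL, MCL and BL along the horizontal axis. Points are tumours and bars are the mean and SD. Cbx7 is high in all 3 MCL tumours, and Ezh2 is lowest in the 4 PCL tumours.

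Cbx7, a chromobox protein of canonical Polycomb repressive complex 1, was measurable in the MCL tumours alone. Its log2 signal was -7.89, -7.67, -6.90 and -7.44 in PCL, -4.39, -4.95 and -3.54 in MCL, and -8.42, -8.19, -7.68 and -7.50 in BL. The 3 MCL tumours lie above all others, while the PCL and BL ranges overlap and none of those 8 values is well above background. The means were -7.48 ± 0.43 in PCL, -4.29 ± 0.71 in MCL and -7.95 ± 0.43 in BL (SD, n = 4, 3 and 4). Cbx7 was selected on this pattern, and its probe is among 56 of 25312 kept probes (0.221%) that were well above background on every MCL array and on no other array.

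The 8 values outside MCL are substitutes that the scanner software wrote in place of a signal too close to background. The fitted difference therefore has no reliable size. With each dim spot set to the dimmest probe still well above background on its array, Cbx7 was at least 2.49-fold lower in PCL than in MCL and at least 3.57-fold higher in MCL than in BL. This holds for the processed signal only and is no strict limit, since single spots that are not well above background can be brighter than that probe. The fitted log2 differences were -3.18 for PCL minus MCL, 0.47 for PCL minus BL and 3.65 for MCL minus BL. With normexp background correction, which adds an offset to every spot, they were -0.29 for PCL minus MCL and 0.51 for MCL minus BL. In the authors' deposited log2 table they were -1.35 for PCL minus MCL, -0.08 for PCL minus BL and 1.27 for MCL minus BL. The MCL mean stayed highest in each of these settings, but the size shrank strongly. With normexp, MCL minus BL fell from 3.65 to 0.51 and PCL minus MCL went from -3.18 to -0.29. With normexp the tumours no longer separated. PCL3 (-2.40) and BL4 (-2.51) lay above all 3 MCL tumours (-3.64, -3.62 and -3.15), and PCL1 (-3.60) lay among them. The rise in PCL3 and BL4 was not limited to Cbx7. With normexp the dimmest of the 3 Cbx6 probes went from lowest (-4.98) to highest (-2.25) of BL in BL4. In PCL3 it went from -3.82 to -1.88, the highest of all tumours. Cbx8 went from -2.73 to -1.83 in BL4 and from -2.89 to -1.81 in PCL3. Why these arrays rose was not tested.

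The raw spots show how little signal stands behind these values. The mean spot brightness was 45.3, 50.7, 43.7 and 46.5 intensity units in PCL, 101.5, 72.0 and 166.2 in MCL, and 37.2, 38.3, 44.6 and 47.3 in BL. The background subtracted at the same spots was 44.4, 57.1, 46.1 and 44.8 in PCL, 43.2, 41.0 and 45.8 in MCL, and 37.8, 39.96, 45.4 and 44.3 in BL. In PCL and BL the spot was about as bright as its background, exceeding it by 0.838 units in PCL1, 1.72 in PCL4 and 3.09 in BL4, and in MCL it was brighter by between 31.1 and 120.5 units.

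**Figure D2:**
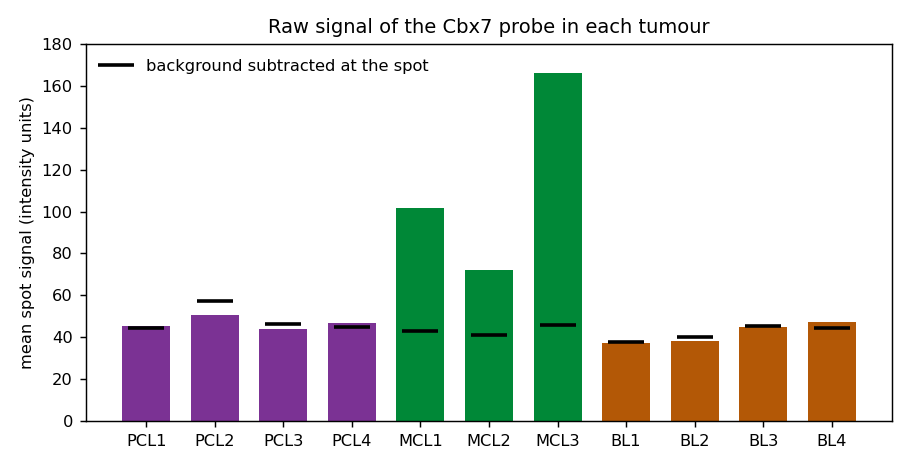
Mean brightness of the Cbx7 spot in intensity units (vertical axis, bars from 0) in each tumour (horizontal axis), with the background subtracted at that spot as a black line. The MCL bars reach 72.0 to 166.2, and the PCL and BL bars lie near their lines.

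Probes as poor in G and C as that of Cbx7 ran high on the MCL arrays as a class, a split by base composition that was chosen after the values were seen. The 30 kept probes with at most 20% G and C include those of Cbx7 and Cbx8, so the class values are not independent of them. A dim probe could also enter the class through the 3 MCL arrays alone, where it is high. Of the 30 probes, 28 were higher in MCL than in BL, with a median log2 difference of 1.34. That median was 0.45 with normexp and 0.64 in the authors' values. In 11 of them (36.7%) the signal was called higher in MCL than in BL, against 4.83% of all 25312 kept probes tested as probes (6.44% of genes). The 30 probes include that of Cbx7, which was selected on this difference. The share called is therefore a description and not a test of the class. In the same class the median was -1.32 for PCL minus MCL (-0.23 with normexp, -0.74 in the authors' values) and -0.01 for PCL minus BL. The class median, centred on each probe's mean, was -0.34, -0.47, -0.37 and -0.45 in PCL, 1.01, 1.13 and 0.95 in MCL, and -0.29, -0.38, -0.55 and -0.42 in BL.

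Cbx7 and Cbx8 belong to this class, so its values move with theirs in part by construction. The part of base composition in both results was not tested. With each array centred within classes of G and C content, the MCL minus BL difference of Cbx7 was 2.21 and its PCL minus MCL difference was -1.74. The class medians used for the centring include these same probes. The class also holds probes of genes with other functions, among them Rabggtb (a prenyltransferase subunit, 3.31), Arhgap19 (2.78) and the mitotic kinases Aurkb (2.14) and Cdk1 (2.53 and 0.55 with 2 probes), given as MCL minus BL log2 differences. In the classes of 20 to 25% and 25 to 30% G and C, the medians of MCL minus BL were 0.48 and 0.23, and above 30% they lay between 0.01 and 0.07. Among the 5049 genes of lowest mean signal, which include Cbx7, the median MCL minus BL difference was 0.40. Among the 5048 of highest mean signal it was -0.06. For PCL minus BL the medians of the same sets were 0.24 and 0.05, so dim genes ran higher than in BL in both types. For PCL minus MCL they were -0.19 and 0.06.

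**Figure D3:**
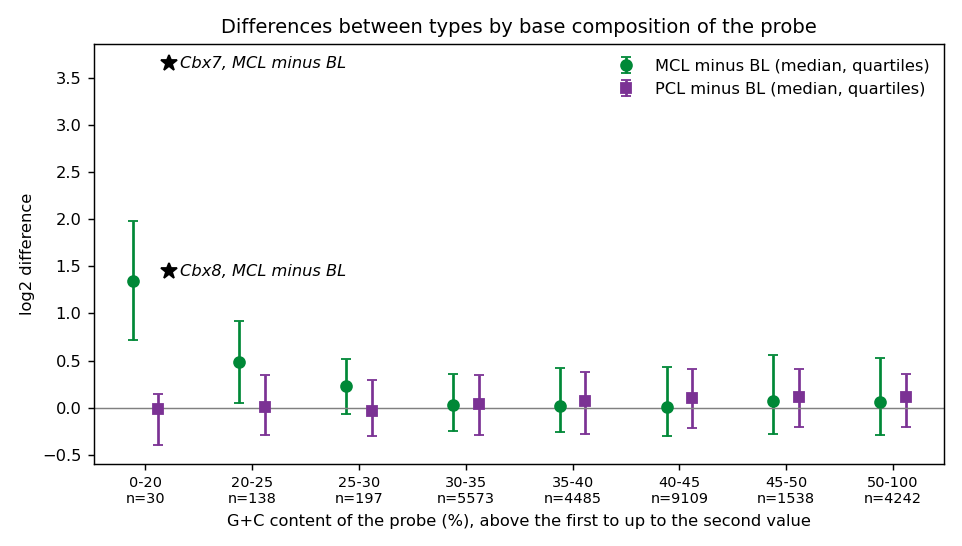
Log2 differences of MCL minus BL and of PCL minus BL (vertical axis) by the G and C content of the probe (horizontal axis, classes with their number of probes). Points are medians and bars are quartiles. The median of MCL minus BL is 1.34 in the class up to 20% and near 0 above 30%, and stars mark Cbx7 and Cbx8 for MCL minus BL.

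Cbx8, another chromobox reader of canonical Polycomb repressive complex 1, was also brightest in MCL but passed the test in no comparison. Its log2 signal was -3.63, -3.18, -2.89 and -3.05 in PCL, -2.60, -0.06 and -1.52 in MCL, and -3.13, -2.54, -2.95 and -2.73 in BL. All PCL tumours lie below all MCL tumours, but MCL1 overlaps BL. The log2 difference was -1.80 ± 0.48 for PCL minus MCL (SE, limma adjusted p = 0.0543) and 1.45 ± 0.48 for MCL minus BL (limma adjusted p = 0.122). For PCL minus BL it was -0.35 (limma adjusted p = 0.734). Without MCL1 the first difference was -2.40 (limma adjusted p = 0.0203) and the second was 2.05 (limma adjusted p = 0.0320). With all tumours kept, the first was also called with array weights (limma adjusted p = 0.0104) and with only probes well above background on all 11 arrays (limma adjusted p = 0.0440). Centred by G and C class, with this probe counted in the median of its class, the first was -0.36 and the second 0.0039.

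Cbx2, the chromobox reader encoded beside Cbx8, varied as much within types as between them. Its probe lies at chr11:118892363-118892422 on the plus strand, 7.35 kb from that of Cbx8. The log2 signal was -2.67, -1.87, -1.35 and -1.51 in PCL, -3.55, -1.10 and -0.85 in MCL, and -1.84, -0.49, -1.91 and -0.14 in BL. MCL1 was the lowest of all 11 tumours and BL4 the highest. The limma adjusted p of Cbx2 was 0.991 for PCL minus MCL, 0.583 for PCL minus BL and 0.653 for MCL minus BL.

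Cbx6, a further chromobox reader, whose gene lies 87.9 to 91.6 kb from Cbx7 by their probes, showed the widest spread within a type. Its leading probe read 0.79, 0.34, 0.94 and 0.53 in PCL, -1.99, 1.16 and 1.92 in MCL, and -0.67, -0.32, 1.59 and -0.71 in BL. MCL1 is far below the other MCL tumours, and BL3 far above the other BL tumours. Both departures recur in the other probes: the second read -2.08 in MCL1 and 1.20 in BL3, and the third -5.32 in MCL1, its lowest value, and -3.50 in BL3, its highest in BL. Over the 11 tumours the Pearson correlation between the 3 probes was 0.988, 0.880 and 0.929, as a description of probes that share the same RNA. The limma adjusted p was 0.870 for PCL minus MCL, 0.708 for PCL minus BL and 0.867 for MCL minus BL.

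Bmi1, the ring finger cofactor of the ligase, differed little between types. Its leading probe read 1.95, 1.94, 1.73 and 1.53 in PCL, 2.10, 1.35 and 1.46 in MCL, and 2.31, 1.69, 1.46 and 1.53 in BL. The ranges overlap in every comparison, and the limma adjusted p lay between 0.768 and 0.951. The second Bmi1 probe followed the first loosely, with a Pearson correlation of 0.431 over the 11 tumours.

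The ligase genes Ring1 and Rnf2 passed no test either. Ring1 read -1.53, -1.92, -1.61 and -1.76 in PCL, -1.25, -0.97 and -1.41 in MCL, and -2.71, -1.60, -1.30 and -1.80 in BL. Each PCL tumour lies below each MCL tumour, by a log2 difference of -0.50 ± 0.30 between the means (SE, limma adjusted p = 0.345). Rnf2 read 1.84, 0.84, 1.15 and 0.77 in PCL, 0.86, 1.51 and 0.88 in MCL, and 1.54, 1.84, 1.05 and 1.21 in BL. All 3 Rnf2 ranges overlap, and the limma adjusted p was 0.916, 0.687 and 0.656 for PCL minus MCL, PCL minus BL and MCL minus BL.

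Ezh2, the methyltransferase of Polycomb repressive complex 2, gave the one call among the 8 tested genes: it was lower in PCL than in BL. Its log2 signal was 1.21, 1.15, 1.41 and 1.03 in PCL, 1.65, 2.66 and 2.41 in MCL, and 2.28, 2.58, 2.74 and 3.31 in BL. The PCL tumours lie below every tumour of both other types. The means were 1.20 ± 0.16 in PCL, 2.24 ± 0.52 in MCL and 2.73 ± 0.43 in BL (SD, n = 4, 3 and 4). Ezh2 was lower in PCL than in BL by a log2 difference of -1.53 ± 0.27 (SE, limma adjusted p = 0.0433), in 4 of 4 PCL tumours, against a background of 0.659% of all genes called in that comparison and 0.203% called lower in PCL. For PCL minus MCL the difference was -1.04 ± 0.29 (SE, limma adjusted p = 0.0616), and for MCL minus BL it was -0.49 ± 0.29 (SE, limma adjusted p = 0.440).

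The size of the Ezh2 difference held while its call did not always. Over 21 other settings, PCL minus BL ranged between -1.68 and -1.33, with an adjusted p between 0.00541 and 0.136, and the call held in 10 of them. It was lost without PCL2 (adjusted p = 0.136), PCL3 (0.116), PCL4 (0.132), MCL3 (0.0614), BL2 (0.0806), BL3 (0.0857) or BL4 (0.0775), each from limma. It was also lost with normexp correction (limma adjusted p = 0.0855). The same held with quantile normalization, without the filter on dim probes and with array position on the slide as a replicate block. For PCL minus MCL, Ezh2 was called in 3 of 21 settings: with array weights (limma adjusted p = 0.00894), without MCL1 (limma adjusted p = 0.0403) and without BL4 (limma adjusted p = 0.0474).

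Ezh2 is known to be expressed in dividing cells, so genes of the cell cycle are given beside it. Levels of 19 such genes were summed on a linear scale relative to the 75th percentile. The sum was 214 to 276 in PCL, 182 to 311 in MCL and 277 to 320 in BL. Of the 19, 15 were lower in PCL than in BL, with a median log2 difference of -0.27, and 0 were called, against 0.659% of all genes. In PCL minus MCL, 12 were lower and 2 were called, against 6.92% of all genes. These were Aurkb (-2.15, limma adjusted p = 0.0257) and Ccne1 (-1.30, limma adjusted p = 0.0314). In MCL minus BL, 1 was called, Aurkb (limma adjusted p = 0.0213), against 6.64% of all genes. The Aurkb probe is in the class of at most 20% G and C. Of 11 macrophage markers, all had a higher mean in PCL than in MCL (1 called, against 6.92% of all genes). All also had a higher mean in PCL than in BL (0 called, against 0.659% of all genes). The summed level of these markers was 2.31 to 26.4 in PCL, 1.66 to 4.57 in MCL and 2.72 to 7.93 in BL. In PCL1 their median centred log2 level was -0.95, lower than in the other PCL tumours, and its Ezh2 level of 1.21 lay within the PCL range. The part of either in the Ezh2 result was not tested. In such bulk tumours, fewer cells of a type and less RNA per cell cannot be told apart.

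Suz12, the core partner of Ezh2, was called in no comparison. Suz12 read 2.21, 2.13, 2.12 and 1.99 in PCL, 1.99, 1.36 and 1.66 in MCL, and 2.28, 2.75, 1.27 and 2.91 in BL. The 4 PCL values are tightly grouped and lie just above those of MCL, while BL3 is the lowest and BL4 the highest of all 11. The log2 difference was 0.44 ± 0.35 for PCL minus MCL (SE, limma adjusted p = 0.479), -0.19 for PCL minus BL (limma adjusted p = 0.813) and -0.63 ± 0.35 for MCL minus BL (SE, limma adjusted p = 0.399). Without BL3 the last was -0.98 (limma adjusted p = 0.0395).

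**Figure D4:**
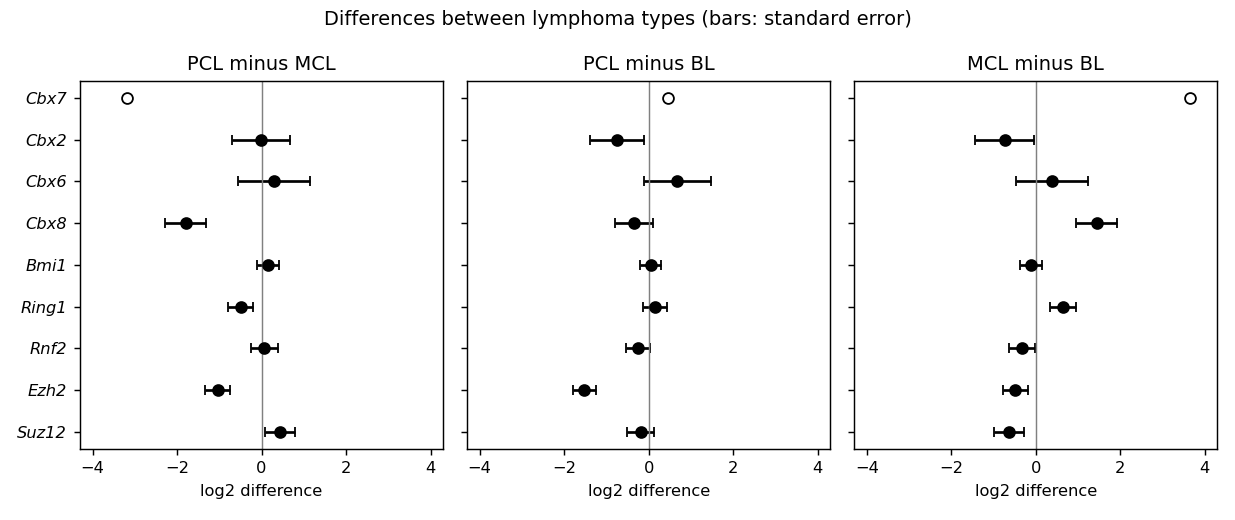
Log2 differences between types (horizontal axes) of the leading probe of the 9 genes (vertical axis), for PCL minus MCL, PCL minus BL and MCL minus BL. Bars are standard errors, and open points mark Cbx7, which has none because it was not tested. Among the 8 tested genes, Ezh2 in PCL minus BL (-1.53) is the one call.

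Counted over the 8 tested genes, 0 were called in PCL minus MCL, against 6.92% of all genes, and 2 had an unadjusted p under 0.05, against 24.4%. In 4 of the 8, the PCL and MCL tumours did not overlap, against 22.9% of all genes. In PCL minus BL, 1 of 8 was called, against 0.659% (0.203% called lower in PCL). In the same comparison 1 had an unadjusted p under 0.05, against 17.6%, and 1 did not overlap, against 11% (4.4% lower in PCL). In MCL minus BL, 0 of 8 were called, against 6.64%, 1 had an unadjusted p under 0.05, against 18.5%, and 0 did not overlap, against 17.7%. The median difference of the 8 genes was 0.03, -0.22 and -0.22 in PCL minus MCL, PCL minus BL and MCL minus BL, against -0.03, 0.09 and 0.06 over all genes.

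Likeness to Cbx7 was measured by the Pearson correlation over the 11 tumours. Since 8 of the 11 Cbx7 values are substitutes and Cbx7 was selected on its MCL level, this mainly restates MCL against the other types. The named genes most like Cbx7 were Zfp658 (0.979), Marchf3 (0.971), Cym (0.970), Fhod3 (0.964) and Psg16 (0.963). Among 14079 named genes, 113 (0.803%) exceeded 0.9. Fhod3, a formin, was itself well above background on 3 arrays only, whereas Zfp658, a zinc finger gene, was well above background on all 11 and differed by 0.70 between MCL and BL.

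Beyond the 9 genes, 38 of 39 listed Polycomb, opposing and heterochromatin genes were measured, and 0 were called in each comparison (limma), against 6.92%, 0.659% and 6.64% of all genes in PCL minus MCL, PCL minus BL and MCL minus BL. In the same order, 4, 9 and 2 had an unadjusted p under 0.05, against 24.4%, 17.6% and 18.5% of all genes. In PCL minus BL, 10 were higher and 28 lower, with a median log2 difference of -0.24, against 0.09 over all genes. Without PCL1, 5 of the 38 were called in PCL minus MCL and 4 in PCL minus BL (limma), where 2463 and 1073 of all genes were called. In PCL minus MCL, 17 were higher and 21 lower, and in MCL minus BL 9 were higher and 29 lower.

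Among the other subunits of Polycomb repressive complex 1, Phc1, a polyhomeotic protein that joins complexes together, differed most between PCL and BL. It read -2.37, -2.75, -2.80 and -2.69 in PCL, -2.27, -1.34 and -1.70 in MCL, and -0.17, -1.28, -1.69 and -0.80 in BL. The PCL tumours lie below all others, with a PCL minus BL difference of -1.67 ± 0.32 (SE, limma adjusted p = 0.0548). Scmh1, a Sex comb on midleg homologue, averaged -2.04 ± 0.34 in PCL, -1.96 ± 0.61 in MCL and -1.01 ± 0.35 in BL (SD, n = 4, 3 and 4), with a limma adjusted p of 0.116 for PCL minus BL and 0.120 for MCL minus BL. Pcgf2, a relative of Bmi1, was well above background in none of the MCL tumours, and not in PCL1 or PCL3. Its PCL minus MCL difference of 1.47 (limma adjusted p = 0.344) therefore has no reliable size.

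In Polycomb repressive complex 2, the accessory subunit Aebp2 was lower in all 4 PCL tumours than in all 7 others. It read -0.11, -0.07, -0.41 and -0.46 in PCL, 0.81, 0.50 and 0.28 in MCL, and -0.06, 0.80, 0.49 and 1.01 in BL. The difference was -0.79 for PCL minus MCL (limma adjusted p = 0.0988) and -0.82 for PCL minus BL (limma adjusted p = 0.123). The accessory subunit Epop averaged 2.55 ± 0.24 in PCL, 2.10 ± 0.71 in MCL and 1.70 ± 0.48 in BL (SD, n = 4, 3 and 4), the largest PCL minus BL difference of that list, 0.85 (limma adjusted p = 0.217). Phf19, which binds methylated histone H3, differed most between MCL and BL, by -0.54 (limma adjusted p = 0.514). Among the opposing enzymes, Kdm6b, a demethylase of lysine 27, averaged 0.39 ± 0.38 in PCL, -0.66 ± 0.42 in MCL and 0.13 ± 1.31 in BL (SD, n = 4, 3 and 4), with a limma adjusted p of 0.316 for PCL minus MCL. Of the heterochromatin chromobox genes, Cbx3 differed most between PCL and BL, by -1.17 (limma adjusted p = 0.0942), and Cbx1 most between MCL and BL, by -0.34 (limma adjusted p = 0.792).

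Several of these genes share chromosome 6 with Ezh2, a grouping that was chosen after the values were seen. They are Aebp2, Phc1, Pcgf1, Rybp and Cbx3, where Pcgf1 and Rybp belong to variant forms of Polycomb repressive complex 1. All 6 had a lower mean in PCL than in MCL and in BL. Their median differences were -0.94 for PCL minus MCL and -1.09 for PCL minus BL. The other 41 measured genes, from the 9 and from the list, had medians of 0.03 and -0.19. The 453 other chromosome 6 genes with above-median signal had a median of -0.63 for PCL minus BL.

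The 4 PCL tumours did not all follow this. Centred on each gene's mean, the median of the 453 genes was 0.04, -0.41, -0.47 and -0.52 in PCL, 0.03, 0.19 and 0.13 in MCL, and 0.57, 0.16, 0.11 and 0.10 in BL. PCL1 stands apart from the other PCL tumours there, and likewise in Rybp, which read 1.06, 0.02, -0.47 and -0.24 in PCL, against 1.62, 1.00, 0.73 and 1.09 in BL. Cbx3 read 4.51, 3.42, 3.58 and 3.31 in PCL, against 5.28, 5.03, 4.66 and 4.52 in BL. Pcgf1 read -0.48, -1.52, -1.72 and -1.55 in PCL, against -0.63, -0.83, -0.71 and -1.37 in BL. For Pcgf1, PCL1 thus lay above every BL tumour, while the other PCL tumours lay below them all. Set against the BL mean, Ezh2 was -1.52 in PCL1 and -1.53 over PCL2 to PCL4. Phc1 (-1.38 and -1.76) and Aebp2 (-0.67 and -0.87) likewise were low in PCL1 as well as in the other PCL tumours. The part of chromosome 6 in the Ezh2 result was not tested.

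**Figure D5:**
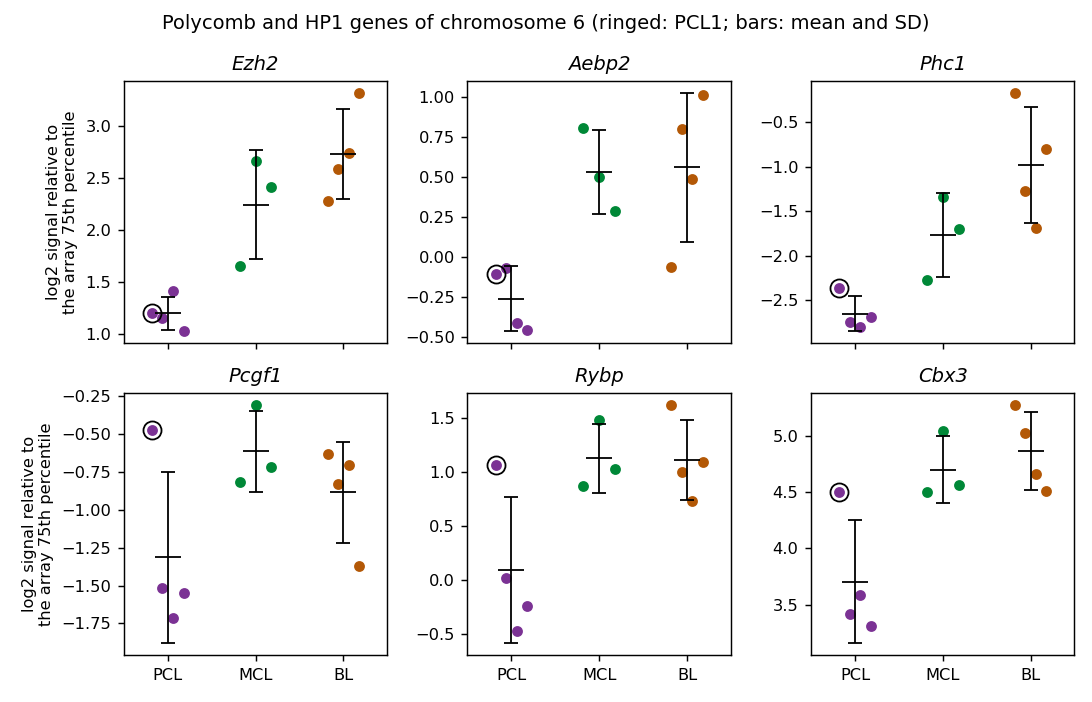
Log2 signal relative to the 75th percentile of the array (vertical axes, which differ between panels) of Ezh2 and the other 5 listed genes on chromosome 6, by type (horizontal axis). Points are tumours, bars are the mean and SD, and PCL1 is ringed. PCL1 lies with the other PCL tumours for Ezh2 (1.21) and apart from them for Rybp (1.06), Cbx3 (4.51) and Pcgf1 (-0.48).

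Of 17 listed known targets of Polycomb silencing, 10 were measured. The other 7 had probes but failed the filter on dim probes. Igf2 was well above background on 1 array, and Gata4, Gata6, Hoxa5, Hoxa10, Hoxc6 and Pax6 on 0. Targets that dim are therefore outside the counts that follow. Of the 10, 0 were called in each comparison (limma), against the 6.92%, 0.659% and 6.64% of all genes given above. At an unadjusted p under 0.05 there were 2, 1 and 1 in PCL minus MCL, PCL minus BL and MCL minus BL, against 24.4%, 17.6% and 18.5% of all genes. Meis1, a homeobox gene, showed the largest differences of PCL from MCL and from BL, with wide scatter. It read -5.39, -4.69, -6.90 and -7.46 in PCL, -5.09, -1.50 and -2.06 in MCL, and -2.10, -6.93, -6.12 and -0.34 in BL. Its values in PCL3, PCL4, BL2 and BL3 were not well above background. The limma adjusted p of Meis1 was 0.243 for PCL minus MCL (-3.23) and 0.470 for PCL minus BL (-2.24). Cdkn1c, a cell cycle inhibitor, differed most between MCL and BL, by -1.56 (limma adjusted p = 0.688). Its mean was -5.03 ± 2.43 in MCL (n = 3) and -3.48 ± 0.60 in BL (SD, n = 4). The MCL3 value of Cdkn1c (-7.28) was not well above background, so this difference has no reliable size. Cdkn2a, which encodes the p16 and p19Arf proteins and is a classical target of Bmi1, Cbx7 and Ezh2, averaged 4.43 ± 0.37 in PCL, 4.79 ± 0.09 in MCL and 4.81 ± 0.28 in BL (SD, n = 4, 3 and 4). Its limma adjusted p was 0.378 for PCL minus MCL, 0.398 for PCL minus BL and 0.974 for MCL minus BL. Cdkn2a was named for its known link with these genes, outside the rule that chose the others.

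Each array had 55.5% to 62.8% of its spots well above background and 21.5% to 29.2% substitute values, 0 spots were saturated, and the 75th percentile lay between 1072 and 1637 intensity units. The tumours are labelled as B cell tumours, and all 8 B cell markers were well above background on every array, with summed levels of 152 to 230 in PCL, 168 to 180 in MCL and 221 to 244 in BL. T cell markers summed to 20.7 to 36.8 in PCL, 17.1 to 36.4 in MCL and 26.0 to 31.6 in BL, and plasma cell markers to 38.5 to 67.8 in PCL, 39.99 to 47.5 in MCL and 31.0 to 48.9 in BL. Of the plasma cell markers, 7 of 8 were higher in PCL than in BL and 0 were called, against 0.659% of all genes. Granulocyte markers summed to 0.9004 to 22.4 in PCL, 1.59 to 3.72 in MCL and 0.763 to 10.4 in BL, and stromal markers to 0.293 to 2.49 in PCL, 0.110 to 0.503 in MCL and 0.115 to 1.53 in BL.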

How the data were processed

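RNA of 11 lymphomas was measured on one-colour arrays, with groups taken from the tumour origin in the labels. The deposited scanner files hold spot brightness as an intensity, extracted by the authors with Agilent Feature Extraction 10.7.3.1 against build mm9, per the file headers. On each array 21.5% to 29.2% of spots hold substitute values, marked as such in the files, in place of a signal too close to background. The authors' value table is on a log2 scale that was found from its values, and it served as an alternative. Its making is not stated in the sources used.

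Outlier and control spots were left out and spots of a probe averaged. Log2 processed signals were taken relative to each array's 75th percentile. The filter kept 25312 probes, those with 3 or more arrays well above background, and each gene was represented by its brightest probe on average. Names came from accessions matched to RefSeq (26581 probes), then from symbols (2597), older symbols (492) or the files (9759 probes). Types were compared with lmFit and eBayes in limma 3.58.1 (R 4.3.3), on all 11 arrays with 8 residual degrees of freedom, and tested on simulated data. The number of arrays limits the precision. The genes described and all lists were chosen with earlier results of these data known. Named were the 9 genes, in the Polycomb, opposing, heterochromatin and target lists the genes with the largest differences, and the 5 genes most like Cbx7. Cell cycle genes were named where called, and cell type markers are given as lists without names. Listed genes on chromosome 6 and some genes with probes poor in G and C were also named. Alternatives changed the background, normalization, filter, probe choice, weights, block and samples.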

Additional observations from a re-analysis of the deposited data

Results flagged for a closer look

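The leading Cbx6 probe stood out in 1 Burkitt lymphoma. BL3 read 1.59, while the other BL tumours lay between -0.71 and -0.32, so the gap to its nearest neighbour was 0.830 of the whole BL range. It was 1 of 24 sets of tumours of a type and probe examined this way, and chance alone marks about 1 in 20 such sets. The types PCL and BL were examined, and MCL, with 3 tumours, was not.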

How the results depend on the processing

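The number of genes called moved with the processing. For PCL minus MCL it was 1398, but 197 with normexp, 697 without the filter on dim probes, 4416 with array weights, 742 with the 2 types alone and 333 to 2463 with 1 tumour left out. For PCL minus BL it was 133, but 13 with normexp, 86 without the filter, 2179 with array weights, 209 centred by G and C class (an alternative chosen after seeing the data) and 5 to 1073 with 1 tumour left out; leaving out PCL1 gave 1073, PCL2 5, PCL3 37, PCL4 28, BL2 36, BL3 45 and BL4 64. For MCL minus BL it was 1340, but 65 with normexp, 680 with the authors' values, 762 with quantile normalization, 289 with the 2 types alone and 688 to 1373 with 1 tumour left out. Replicate numbers are array positions on the slide. Deviations of same-position tumours correlated between -0.046 and 0.172 (10 pairs, median 0.088). For tumours at different positions the correlations lay between -0.236 and 0.169 (30 pairs, median -0.019). The same-position median was higher, but the ranges overlap, and the numbers were not taken to pair the tumours. With position as a replicate block, 391 genes were called in PCL minus MCL, 64 in PCL minus BL and 380 in MCL minus BL, and 0 of the 8 tested genes and 0 of the other Polycomb genes were called in each. Of the 8 tested genes, PCL minus MCL had 1 call with only probes well above background on all 11 arrays. That setting tests 15480 genes, and the number called among them is not given here. Array weights gave 2 calls of the 8, where 4416 of all 20193 genes were called. With 1 tumour left out there were 0 to 2, where 333 to 2463 of all genes were called. PCL minus BL had 0 with normexp, quantile normalization or no filter, and 0 to 1 with 1 tumour left out. MCL minus BL had 0 to 1 with 1 tumour left out. Of the 38 other Polycomb genes, array weights gave 6 calls in PCL minus MCL and 9 in PCL minus BL. There, 4416 and 2179 of all 20193 genes were called. PCL minus BL had 1 on all 11 arrays and 1 centred by G and C class. With 1 tumour left out, PCL minus MCL had 0 to 5, PCL minus BL 0 to 4 and MCL minus BL 0 to 0. The Cbx7 difference was -0.29 (normexp), -1.35 (authors' values) and -1.74 (G and C class) for PCL minus MCL, -0.081 (authors' values) for PCL minus BL, and 0.51, 1.27 and 2.21 for MCL minus BL in the same order. With 1 tumour left out it was -3.51 to -2.81, 0.28 to 0.62 and 3.28 to 3.98 in PCL minus MCL, PCL minus BL and MCL minus BL. Signs turned only for uncalled differences. In PCL minus MCL these were Cbx2 (0.0126 with normexp, 0.0044 by G and C class), Cbx6 (-0.40 with array weights) and Rnf2 (-0.078 with array weights), and in PCL minus BL Ring1 (-0.085 with array weights). With 1 tumour left out, PCL minus MCL ranged from -0.87 to 0.47 for Cbx2, -0.89 to 1.07 for Cbx6 and -0.16 to 0.28 for Rnf2. PCL minus BL ranged from -0.052 to 0.23 for Bmi1, -0.14 to 0.33 for Ring1 and -0.54 to 0.012 for Suz12. MCL minus BL ranged from -1.23 to 0.12 for Cbx2, -0.39 to 1.56 for Cbx6 and -0.34 to 0.082 for Bmi1. Beyond leaving out tumours, which lowers their number, the causes were not tested. Cbx7 in PCL and BL is limited by signal over background.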
